A study of Mus musculus with 36 samples.

Results

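SRC family kinases are non-receptor tyrosine kinases that sit under the plasma membrane and start signalling from antigen and Fc receptors. Here 7 of them, Blk, Lyn, Fyn, Lck, Fgr, Src and Yes1, were followed together with Syk, the tyrosine kinase that they hand over to, during the conversion of B cells into macrophages (BMT). The members were taken by gene name, and the 8 genes were found among the 40354 genes of the count tables and in the tables of log2 normalized counts. All 8 passed the filter on low counts in each fit. The question was how the kinases of B cells and of myeloid cells exchange during the conversion, and whether the exchange differs between forms of the driving factor.

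The cells were B cells from the bone marrow of C57BL/6J mice, infected with a C/EBPα-ER-hCD4 retrovirus. C/EBPα is a transcription factor of the myeloid lineage. Its fusion to the hormone-binding part of the estrogen receptor (ER) is meant to keep it inactive until 17β-estradiol (E2) moves it to the nucleus. Infected cells were enriched through the human CD4 that the virus also encodes, so the populations are pools of infected cells and not clones, and all groups, the uninduced one included, carry the retrovirus. There are 3 constructs: wild-type C/EBPα (WT), C/EBPα with arginine 35 replaced by alanine (R35A) and C/EBPα with arginine 35 replaced by lysine (R35K). From more accessible chromatin at B cell regulatory elements in uninduced R35A cells, the paper proposes that the construct leaks. Cells were grown on inactivated mouse embryo fibroblasts (MEFs) in medium with IL-7, to which the methods add the cytokines IL-3, FLT-3, mCSF-1 and mSCF during conversion, with later renewals lacking IL-7. RNA-seq was done before induction (0 h) and, in hours post induction (hpi), after 1 h, 3 h, 6 h, 18 h and 120 h. The labels call the cells of 120 hpi macrophages and the others B cells. With 2 libraries for every construct at every timepoint, there are 18 groups and 36 libraries. The methods call them biological replicates without saying whether they came from separate mice, so the p-values measure the spread between these libraries. The libraries of R35K were deposited in tables of their own. Where their levels are set beside those of WT or R35A, construct and table cannot be told apart. The age of the mice is not given in the sources used here.

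In B cells, Lyn, Blk and Fyn phosphorylate the ITAM tyrosines of Cd79a and Cd79b, the signalling chains of the B cell receptor and its precursor, and Syk docks onto them and carries the signal forward. Macrophages use the same relay under other receptors: Fgr and Lyn act beneath Fc receptors and integrins, and Syk binds the ITAM adaptors Fcer1g and Tyrobp. Lck is best known as the kinase of the T cell receptor and is also made by some B cells, whereas Src, Yes1 and Fyn are made by most tissues.

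The libraries held between 13044456 and 23131776 reads counted on genes, with a median of 15471229.5. Levels are given as CPM, counts scaled to the size of the library, after trimmed-mean scaling over the 36 libraries. The log2 changes come from fits scaled over their own libraries and can differ from what these CPM give. For Fyn in WT cells at 120 hpi the fit gave −0.71, and the means of log2(CPM + 1) gave −0.58. Markers were checked first. The summed level of 6 B cell markers was 2343 to 2536 CPM at 0 h and 30.03 to 51.8 CPM at 120 hpi, and that of 6 macrophage markers went from 57.7 to 64.38 CPM up to 17800 to 29090 CPM. The T cell genes Cd3d, Cd3e and Cd3g were at or below 0.0921 CPM in every WT group. Of 10 fibroblast markers, all were detected at 0 h, with a sum of 4011 to 4252 CPM, although feeders had been removed by adherence. Differences between replicates ran from near counting noise to above it, with the largest excess at 120 hpi in each construct. The median over genes of their squared difference was 1.067 to 1.997 times that expected from counting alone.

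A change was called when it reached 1.5-fold with an adjusted p of at most 0.05 in edgeR's quasi-likelihood test, adjusted over all genes tested. Against 0 h, 3, 4, 4, 7 and 7 members were called in WT cells over the 5 later timepoints. The shares of all 16988 genes called in the same 5 comparisons were 19.9, 23.5, 29.8, 47.1 and 63.3%, so the count of members rose as that of all genes did. In R35A cells 6, 5, 5, 5 and 7 members were called, against 37.3, 36.8, 37.7, 42.6 and 63.1% of the genes. In R35K cells the counts were 3, 3, 3, 4 and 6, against 32.9, 32.7, 34.1, 39.0 and 63.8% of 16434 genes. With 8 members, a count of 3 is a share close to that of all genes called in R35K cells from 1 to 6 hpi, so what follows describes which members changed and by how much. The median size of the change over the 8 members was 0.39 on the log2 scale at 1 hpi and 2.87 at 120 hpi in WT cells, against 0.32 and 1.05 over all genes. In R35A cells it was 0.77 and 1.97 against 0.49 and 0.99, and in R35K cells 0.42 and 2.08 against 0.42 and 0.99.

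**Figure D1:**
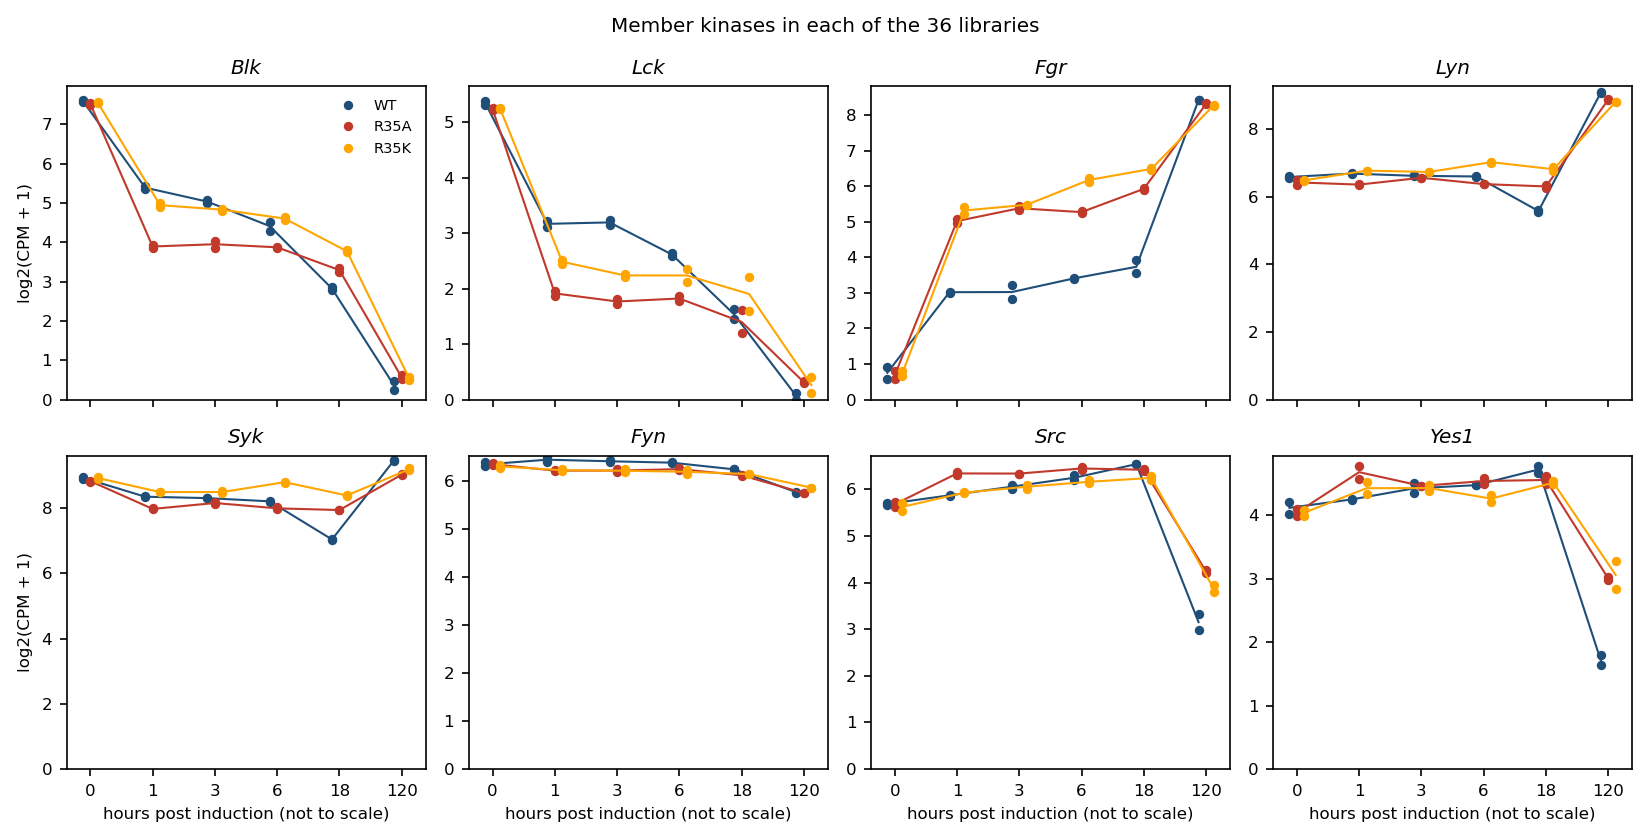
Level of each member, as log2(CPM + 1), in each of the 36 libraries against hours post induction (points: libraries; lines: through the mean of each pair of replicates; blue WT, red R35A, orange R35K). Blk and Lck drop toward 0, Fgr climbs from 0.479 to 0.891 CPM at 0 h to 303 to 342 CPM at 120 hpi, Lyn and Syk are lowest in WT cells at 18 hpi, and Src and Yes1 are lowest at 120 hpi.

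Blk and Lck, the members that were nearly gone at 120 hpi, fell within the first hour, and further with R35A. Blk, which lies on chromosome 14, 63372836 to 63417037, minus strand of GRCm38, phosphorylates the ITAMs of the B cell receptor and is nearly specific to the B lineage. In WT cells its level was 194 and 190.4 CPM at 0 h, 41.9 and 40.0 CPM at 1 hpi, 30.9 and 32.6 CPM at 3 hpi, 22.1 and 18.7 CPM at 6 hpi, 6.32 and 5.85 CPM at 18 hpi and 0.177 and 0.382 CPM at 120 hpi. Each later pair of WT libraries lay below the earlier one without overlap. In R35A cells the level was 184 and 180.3 CPM at 0 h and 13.4 and 14.3 CPM at 1 hpi, then 13.6 and 15.4 CPM, 13.6 and 13.7 CPM and 9.11 and 8.49 CPM, and 0.427 and 0.531 CPM at 120 hpi.

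R35A cells thus had most of their early loss of Blk at 1 hpi, and the values from 1 to 6 hpi overlapped. In R35K cells the level fell from 184 and 189 CPM to 28.6 and 31.0 CPM at 1 hpi, 27.9 and 26.9 CPM at 3 hpi, 24.1 and 22.6 CPM at 6 hpi, 12.5 and 12.9 CPM at 18 hpi and 0.418 and 0.487 CPM at 120 hpi. On the log2 scale the change of Blk from 0 h to 1 hpi was −2.21 ± 0.0538 (SE) in WT, −3.74 ± 0.0629 in R35A and −2.69 ± 0.0541 in R35K cells, with edgeR adjusted p of 2.12e-36, 3.49e-44 and 4.71e-30. At 120 hpi Blk was down to 6, 12 and 11 counts over the pair of WT, R35A and R35K libraries, from 5504, 6131 and 6169 at 0 h. These counts correspond to 698-fold (95% exact binomial interval 320 to 1900), 378-fold (216 to 732) and 411-fold (230 to 825) lower levels, and the intervals cover counting error only.

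Lck, on chromosome 4, 129548344 to 129573641, minus strand, phosphorylates the ITAMs of antigen receptors in lymphocytes. Its level in WT cells was 38.8 and 40.7 CPM at 0 h, 7.62 and 8.37 CPM at 1 hpi, 7.84 and 8.46 CPM at 3 hpi, 5.04 and 5.22 CPM at 6 hpi, 1.72 and 2.08 CPM at 18 hpi and 0.0884 and 0 CPM at 120 hpi, where the counts were 1 and 0. In R35A cells it went from 37.1 and 36.2 CPM at 0 h to 2.90 and 2.64 CPM at 1 hpi and was 2.32 and 2.5 CPM, 2.66 and 2.42 CPM and 1.28 and 2.05 CPM at 3, 6 and 18 hpi, and 0.256 and 0.228 CPM at 120 hpi. In R35K cells it was 36.8 and 37.1 CPM at 0 h, 4.72 and 4.47 CPM at 1 hpi, 3.81 and 3.62 CPM at 3 hpi, 4.09 and 3.37 CPM at 6 hpi, 3.60 and 2.04 CPM at 18 hpi and 0.0835 and 0.325 CPM at 120 hpi.

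At 1 hpi Lck was lower in the libraries of both mutants than in those of WT without overlap, while the values of 18 hpi overlapped between R35A and WT cells. The log2 change from 0 h to 1 hpi was −2.29 ± 0.0913 (SE) in WT, −3.74 ± 0.111 in R35A and −3.06 ± 0.12 in R35K cells. At 120 hpi the pair of WT libraries held 1 count of Lck, against 1138 at 0 h, which is a ratio of 866 (95% counting interval 155 to 34200). R35A cells kept 6 of 1233 counts, a ratio of 152 (69.6 to 415), and R35K cells 5 of 1223, a ratio of 179 (76.7 to 554). The constructs did not differ past the threshold in the change of Blk or Lck to 120 hpi. The counting intervals given above overlap between constructs, so smaller differences could have gone undetected. The T cell genes named above were at or near 0 beside the 38.8 and 40.7 CPM of Lck at 0 h, while Lat, an adaptor of T cells, was at 10.09 CPM there. Markers of other blood cells fell in the same hour as Blk and Lck: the summed level of 7 granulocyte genes went from 58.55 to 60 CPM at 0 h to 1.971 to 2.578 CPM at 1 hpi in WT cells, and that of 7 T cell genes from 14.47 to 17.24 CPM to 5.73 to 7.161 CPM. At 1 hpi the granulocyte sum was 2.468 to 3.123 CPM in R35A and 4.196 to 4.219 CPM in R35K cells, and the T cell sum 4.534 to 6.024 CPM and 4.963 to 6.097 CPM. The part of such cells in the fall of Lck and Blk was not tested.

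The 250 bases upstream of the start sites of Lck and Fgr are shown because these genes moved in opposite directions from the first hour. They were read from RefSeq windows of GRCm38.p6, 5′ to 3′ along each gene. Capitals mark AGGAAG or its complement on the other strand. AGGAAG is a longer form of GGAA, the core that ETS factors such as PU.1 bind. PU.1 is the partner with which C/EBPα acts in myeloid cells.
Lck, start nearer to the gene's end (chr4:129558373-129558622, minus strand): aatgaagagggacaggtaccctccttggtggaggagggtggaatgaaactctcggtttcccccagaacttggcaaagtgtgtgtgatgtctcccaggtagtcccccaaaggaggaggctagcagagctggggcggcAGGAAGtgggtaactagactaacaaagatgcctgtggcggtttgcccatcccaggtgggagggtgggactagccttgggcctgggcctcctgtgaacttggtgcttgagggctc
Lck, start farther from the gene's end (chr4:129573642-129573891, minus strand): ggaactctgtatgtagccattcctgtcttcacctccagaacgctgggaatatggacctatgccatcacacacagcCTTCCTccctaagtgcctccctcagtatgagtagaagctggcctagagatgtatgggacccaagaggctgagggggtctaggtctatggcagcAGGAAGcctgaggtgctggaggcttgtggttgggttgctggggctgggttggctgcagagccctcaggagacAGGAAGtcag
Fgr (chr4:132973845-132974094, plus strand): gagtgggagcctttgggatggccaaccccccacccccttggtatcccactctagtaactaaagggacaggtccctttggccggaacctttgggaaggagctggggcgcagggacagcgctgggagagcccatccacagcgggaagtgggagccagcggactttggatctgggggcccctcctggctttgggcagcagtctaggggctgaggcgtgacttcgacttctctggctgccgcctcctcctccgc

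AGGAAG was found 1 and 3 times in the Lck windows and 0 times in that of Fgr, and it is held by 29.5% of all 32851 such windows. The shorter GGAA, which the Fgr window also holds, was not counted. Searched on both strands, the longer PU.1 motif GAGGAAGT (2.44% of windows), the C/EBP palindrome TTGCGCAA (0.164%) and the looser C/EBP pattern TTNNGCAA (9.56%) were found in none of the 8 windows of the 6 members that had an entry. Of the other windows only that of Src held AGGAAG, 1 time. GAGGAAGT contains AGGAAG, and TTGCGCAA is 1 case of TTNNGCAA. These are matches of letters and not sites of binding, which was not measured in these libraries.

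Fgr was the member that rose in every comparison with 0 h. It lies on chromosome 4, 132974095 to 133001910, plus strand, and its kinase works beneath Fc receptors and integrins of neutrophils and macrophages. At 0 h it was at 0.891 and 0.499 CPM in WT, 0.738 and 0.479 CPM in R35A and 0.754 and 0.568 CPM in R35K cells, which rests on 7 to 13 counts per library. In WT cells it then was 7.16 and 7.05 CPM at 1 hpi, 6.06 and 8.35 CPM at 3 hpi, 9.69 and 9.52 CPM at 6 hpi, 10.7 and 14.1 CPM at 18 hpi and 341 and 342 CPM at 120 hpi. In R35A cells it already reached 32.8 and 30.0 CPM at 1 hpi, followed by 38.9 and 42.4 CPM, 36.9 and 38.3 CPM, 61.2 and 58.1 CPM and 320.0 and 313 CPM. Both R35A libraries of 1 hpi exceeded both WT libraries of 18 hpi.

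From 1 to 18 hpi R35K cells showed the highest values of the 3 constructs. They held 41.4 and 36.4 CPM at 1 hpi, 43.6 and 43.4 CPM at 3 hpi and 73.9 and 68.5 CPM at 6 hpi. At 18 hpi they held 87.2 and 90.0 CPM, and at 120 hpi 309.9 and 303 CPM. At 120 hpi the 3 constructs lay within 303 to 342 CPM. The log2 change to 1 hpi was 3.35 ± 0.247 (SE) in WT, 5.68 ± 0.167 in R35A and 5.80 ± 0.141 in R35K cells, and to 120 hpi it was 8.79 ± 0.111, 8.92 ± 0.110 and 8.73 ± 0.0989. The edgeR adjusted p of the 120 hpi changes was 1.37e-50, 4.56e-51 and 4.24e-38, and Fgr was higher than at 0 h in 10 of 10 induced libraries of each construct.

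Over the means of the 18 groups, Sirpb1c and Clec5a were among the genes whose log2(CPM + 1) was most alike to that of Fgr, with Pearson r = 0.9959 and 0.9957. The groups share scaling, and the values are given as a description.

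Lyn and Syk, the kinases that B cells and macrophages share, did not follow either course. Lyn, on chromosome 4, 3678115 to 3813122, plus strand, acts both in activation and, through inhibitory receptors, in restraint of signalling. It was 93.0 and 97.7 CPM at 0 h in WT cells, 103 and 101 CPM at 1 hpi, 96.8 and 98.6 CPM at 3 hpi and 96.7 and 96.0 CPM at 6 hpi, fell to 48.4 and 45.6 CPM at 18 hpi and was 534 and 550.1 CPM at 120 hpi. R35A cells held 81.1 and 89.7 CPM at 0 h and 76.6 and 80.1 CPM at 18 hpi, and R35K cells 88.5 and 89.6 CPM and 117 and 107 CPM. The drop at 18 hpi was thus seen in both WT libraries and was not called with either mutant.

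In numbers, the log2 change of Lyn from 0 h to 18 hpi was −1.03 ± 0.0473 (SE) in WT (edgeR adjusted p = 2.55e-25), −0.14 ± 0.0434 in R35A and 0.29 ± 0.0444 in R35K cells. By 120 hpi Lyn had reached 463 and 474 CPM in R35A and 451 and 449.6 CPM in R35K cells, and the changes of 2.38 ± 0.0391, 2.33 ± 0.0389 and 2.24 ± 0.0423 were called in WT, R35A and R35K cells. Genes on the other strand overlap Lyn at 4 places, Fyn at 3 and Yes1 at 2, and the sources used here do not say which strand setting the counts were taken with. If strand was not used, reads of such a pair cannot be told apart.

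Syk, on chromosome 13, 52583173 to 52648792, plus strand, relays signals from phosphorylated ITAMs in both lineages. In WT cells it was 479 and 496 CPM at 0 h, 324 and 327 CPM at 1 hpi, 316 and 316 CPM at 3 hpi, 293 and 296 CPM at 6 hpi, 133 and 128 CPM at 18 hpi and 717 and 701 CPM at 120 hpi. In R35A cells the level was 448 and 458 CPM at 0 h, 248 and 253 CPM at 1 hpi, 246 and 243 CPM at 18 hpi and 527 and 515 CPM at 120 hpi. In R35K cells it was 474 and 495 CPM, 357 and 362 CPM, 331 and 337 CPM and 569.6 and 599 CPM at the same times, and 448 and 439 CPM at 6 hpi. Between 1 and 18 hpi each pair of libraries lay below that of 0 h of its construct, and WT cells at 18 hpi were the lowest of the 18 groups.

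The fall of Syk was called at 3, 6 and 18 hpi in WT cells, with log2 changes of −0.63 ± 0.0336 (SE), −0.74 ± 0.0337 and −1.90 ± 0.0357, and at 1, 3, 6 and 18 hpi in R35A cells, with −0.88, −0.70, −0.85 and −0.91. At 1 hpi in WT cells the value was −0.56, just under 1.5-fold. In R35K cells no change of Syk was called, and that of 18 hpi was −0.58, which without replicate 1 of 0 h was −0.61 and called. At 120 hpi its change was 0.41 ± 0.0331 in WT, 0.08 ± 0.0331 in R35A and 0.17 ± 0.0371 in R35K cells, also under 1.5-fold. When the WT libraries of 0 h and 120 hpi were fitted alone, that value was 0.65 and was called.

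Src, Yes1 and Fyn, the broadly expressed members, differed from 0 h by less than 2-fold up to 18 hpi. Src, on chromosome 2, 157418444 to 157471862, plus strand, was 51.3 and 49.8 CPM at 0 h, 57.9 and 57.2 CPM at 1 hpi, 63.5 and 67.7 CPM at 3 hpi, 72.3 and 77.9 CPM at 6 hpi, 92.5 and 91.7 CPM at 18 hpi and 9.02 and 6.88 CPM at 120 hpi in WT cells. R35A cells had 48.4 and 52.1 CPM at 0 h, 81.5 and 78.7 CPM at 1 hpi, 86.0 and 83.3 CPM at 18 hpi and 18.3 and 17.5 CPM at 120 hpi. R35K cells had 45.5 and 51.3 CPM, 60.2 and 59.7 CPM, 72.2 and 77.6 CPM and 14.5 and 12.9 CPM. Between 1 and 18 hpi the libraries of each construct lay above those of 0 h without overlap, and at 120 hpi they lay below.

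The rise of Src was called at 18 hpi in WT cells, with 0.86 ± 0.0522 (SE) on the log2 scale, at 1, 3, 6 and 18 hpi in R35A cells, with 0.65, 0.64, 0.76 and 0.73, and at 18 hpi in R35K cells, with 0.59. The last of these was not called without replicate 1 of 0 h (0.51) or replicate 2 of 18 hpi (0.54). At 120 hpi Src had fallen by 2.79 on the log2 scale in WT, by 1.62 in R35A and by 1.92 in R35K cells. Yes1, a close relative of Src on chromosome 5, 32611171 to 32687057, plus strand, went from 17.6 and 15.2 CPM at 0 h to 24.4 and 26.5 CPM at 18 hpi and 2.48 and 2.10 CPM at 120 hpi in WT cells.

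With R35A, Yes1 was 16.2 and 14.8 CPM at 0 h, 26.6 and 22.8 CPM at 1 hpi and 7.17 and 6.90 CPM at 120 hpi, and with R35K 16.0 and 14.9 CPM, 19.2 and 21.9 CPM and 8.69 and 6.17 CPM. Its rise was called in WT cells at 18 hpi (0.63) and in R35A cells at 1 hpi (0.66). The WT call was lost without replicate 2 of 0 h (0.52) or of 18 hpi (0.57), and the R35A call without replicate 1 of 1 hpi (0.55). Its fall at 120 hpi was −2.96, −1.26 and −1.16 in WT, R35A and R35K cells and was called in each. Fyn, on chromosome 10, 39368855 to 39565381, plus strand, which also takes part in antigen receptor signalling, stayed between 67.5 and 88.8 CPM in the 30 libraries up to 18 hpi and between 52.5 and 57.0 CPM at 120 hpi. Its fall of 0.71 on the log2 scale in WT and 0.73 in R35A cells at 120 hpi was called, that of 0.55 in R35K cells was not, and the WT value was −0.56 with DESeq2's size factors and −0.58 without replicate 2 of 120 hpi and not called in either. Fitted with the 0 h and 120 hpi libraries alone, Fyn was −0.48 in WT and −0.54 in R35A cells and not called.

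Most fibroblast markers rose and fell at the same times as Src and Yes1, by amounts that differed between markers. Counted as called changes from 0 h, all 10 of 10 rose in WT cells at 1, 3 and 6 hpi and 9 at 18 hpi. At 120 hpi 9 fell and 1, Thbs1, rose. In R35A cells 9 rose at each of these 4 earlier times, in R35K cells 8, 8, 7 and 4, and with either mutant 7 fell and 1 rose at 120 hpi. The sum of the 9 markers other than Thbs1 was 1214 to 1245 CPM in WT cells at 0 h, 3030 to 3094 CPM at 18 hpi and 182.3 to 202.8 CPM at 120 hpi. At 120 hpi it was 614.7 to 615.8 CPM in R35A and 445.4 to 527.6 CPM in R35K cells. Thbs1 was set apart after its values had been seen. It was at 17200 to 17560 CPM in WT cells at 120 hpi, and Lum was at 0 in the libraries of 120 hpi. In bulk RNA, fewer cells of a type and less RNA per cell cannot be told apart, and the part of feeder RNA in the levels of Src and Yes1 was not tested.

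As counts within a library, which need no scaling, the log2 ratio of Src to the fibroblast marker Pdgfrb was −0.48 and −0.70 in WT cells at 0 h, −1.0 and −0.96 at 18 hpi and −0.62 and −1.18 at 120 hpi. Against the other markers it went differently. Between 0 h and 18 hpi in WT cells the mean log2 ratio of Src to each of the 10 changed by −0.659 for Thbs1 to 0.275 for Dcn. Between 0 h and 120 hpi it rose for 4 of the 9 that still had counts, up to 5.441 for Postn, and fell for 5, down to −5.292 for Thbs1, with a median of −0.196. In R35A cells the changes to 120 hpi ran from −2.349 to 6.079 with a median of −0.342, and in R35K cells from −3.059 to 6.579 with a median of −0.314. In WT cells the markers themselves diverged to 120 hpi, Postn from 85.42 to 0.2796 CPM and Thbs1 from 2831 to 17380 CPM. No gene could thus keep a constant ratio to all of them, and the spread of these ratios cannot tell the source of Src RNA. The ratio of Src to Yes1 stayed between 1.34 and 1.99 in the 24 WT and R35A libraries and was 0.74 and 1.06 in R35K cells at 120 hpi. The ratio of Fyn to Pdgfrb, in contrast, was −1.31 and −1.26 at 18 hpi and 1.94 and 1.76 at 120 hpi in WT cells, and the change of Fyn to the 9 markers between 0 h and 120 hpi had a median of 1.891, from −3.205 for Thbs1 to 7.528 for Postn. Src and Yes1 were correlated with r = 0.978 over the 18 group means, and the genes most alike to Src were Erbb2, Dzip1l and Yap1 with 0.9975, 0.9975 and 0.9971, while those most alike to Yes1 were Ptprg, Ddr2 and Zcchc14 with 0.9932, 0.9919 and 0.9916.

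**Figure D2:**
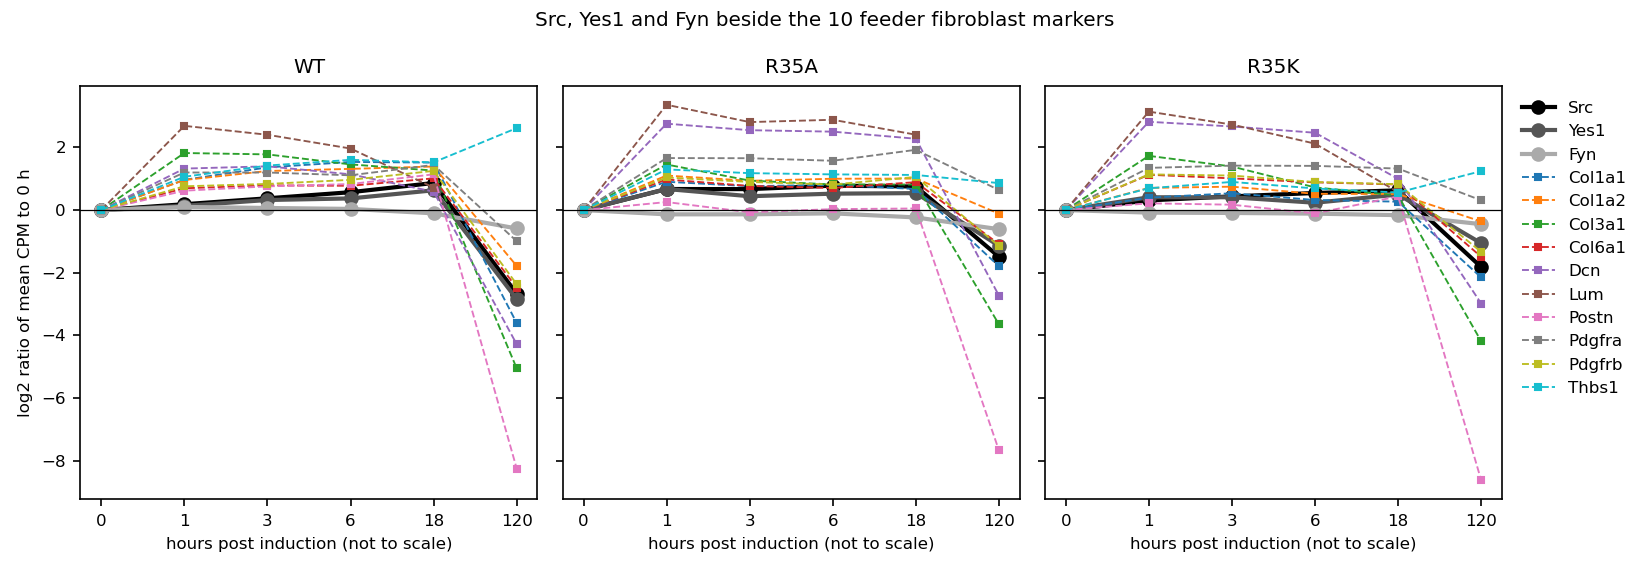
Log2 ratio of the mean CPM to that of 0 h against hours post induction for Src, Yes1 and Fyn (solid lines) and for each of the 10 fibroblast markers (dashed lines), in 1 panel per construct; each point is the mean of 2 libraries, and Lum, at 0 at 120 hpi, has no point there. Src and Yes1 lie above 0 until 18 hpi and below it at 120 hpi, where the markers spread widely, with Postn lowest and Thbs1 above 0, and Fyn stays near 0 until 18 hpi.

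The composition of the 8 kinases was compared as shares of their summed level per kb of exon, the scale on which genes of different length can be set side by side. At 0 h the summed level was 182 to 193 CPM per kb, of which Blk made up 37.0% ± 0.842 (SD, n = 2) in WT cells, Syk 27.0% ± 0.400 and Lyn 12.2% ± 0.312. At 1 hpi Blk was down to 13.2% ± 0.486 in WT, 5.17% ± 0.271 in R35A and 9.13% ± 0.471 in R35K cells, and Syk led in all of them. At 18 hpi Src had the largest share in WT cells, 28.8% ± 0.107, and Fyn followed with 23.3% ± 0.0966, while Syk still led with 25.5% ± 0.0665 in R35A and 27.9% ± 0.336 in R35K cells. The lead of Src in WT cells at 18 hpi depends on the length used: by coding length Syk led there too, with 29.9% against 24.5% for Src and 20% for Fyn, and it led with 38.8% in R35A and 42.1% in R35K cells. The sum of the 9 fibroblast markers without Thbs1 was highest in the same WT libraries.

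At 120 hpi the order was Lyn, Fgr and Syk in each construct. In WT cells their shares were 42.7% ± 0.727, 28.4% ± 0.0803 and 24.3% ± 0.496, in R35A cells 42.6% ± 0.777, 30.4% ± 0.426 and 20.6% ± 0.323, and in R35K cells 41% ± 0.119, 29.4% ± 0.512 and 23.1% ± 0.805. Fgr thus went from 0.0936% ± 0.0382 at 0 h to the largest share but one in WT cells, with gaps to its neighbours larger than the spread between replicates. With R35A and R35K its share at 18 hpi was 15% ± 0.456 and 17.9% ± 0.397, against 4.39% ± 0.849 in WT cells. The same holds at the other times: by coding length Syk led at 0 h with 45.7% and Blk had 22.7% in WT cells, and at 120 hpi Syk had 38.0% and Lyn 35.7%.

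**Figure D3:**
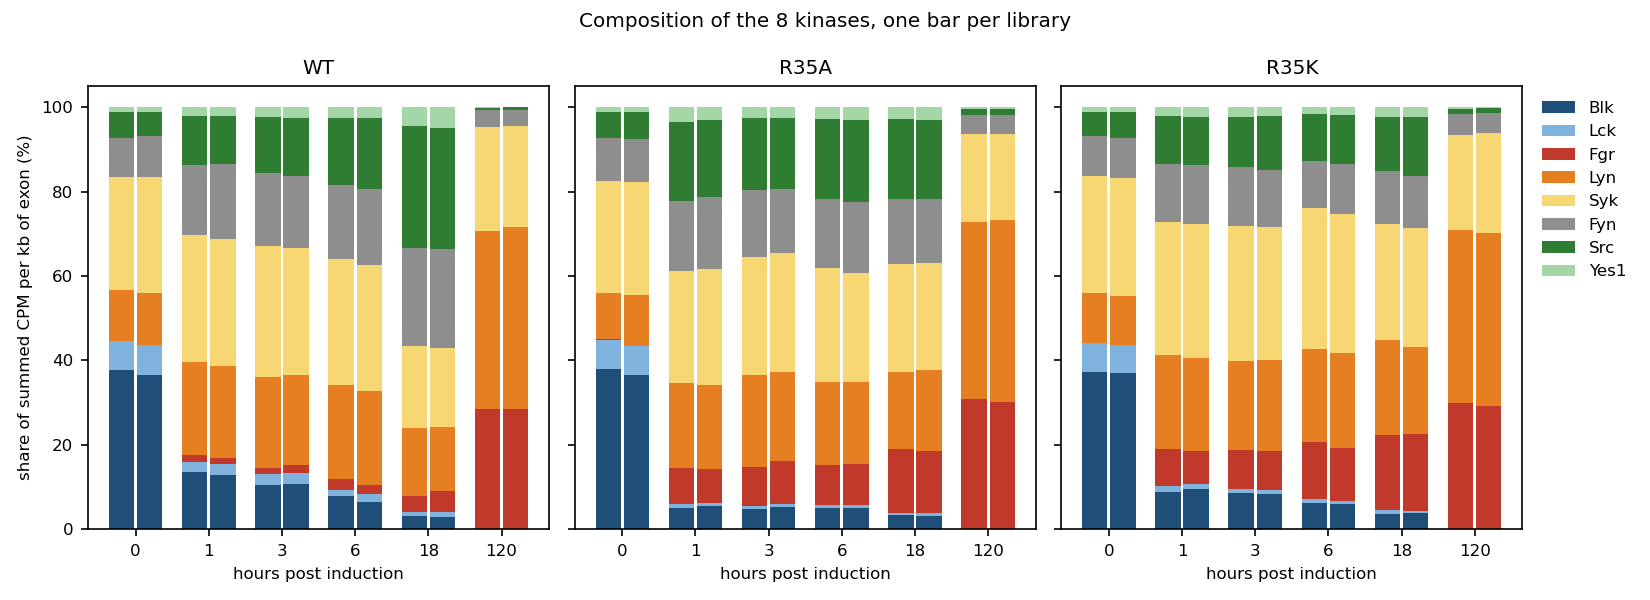
Share of each member in the summed CPM per kb of exon of the 8 kinases, in percent, with 1 bar per library, by hours post induction and construct. Blk (dark blue) takes the largest part at 0 h and is nearly gone at 120 hpi, where Lyn (orange), Fgr (red) and Syk (yellow) make up almost the whole bar.

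Successive timepoints were compared to place the changes in time. Between 1 and 3 hpi 0 members were called, between 3 and 6 hpi Blk (−0.66) and Lck (−0.68) fell, the first of them only with replicate 2 of 6 hpi in the fit (−0.54 and not called without it), and between 6 and 18 hpi Blk (−1.73), Lck (−1.41), Lyn (−1.02) and Syk (−1.16) fell together. Between 18 and 120 hpi all 8 were called, with rises of Lyn (3.40), Fgr (4.65) and Syk (2.32). The fall of Fyn (−0.61) was not called without any 1 of the 4 libraries compared (−0.49 to −0.48). With no library left out, it was also not called in a fit of all 36 libraries (−0.48). The filter of 10 counts (−0.48) and DESeq2's size factors (−0.57) gave no call either. The shares of all genes called in these 4 steps were 1.04, 1.04, 13.3 and 60.5%. In R35A cells 0, 0, 2 and 7 members were called, against 0.553, 0.177, 4.28 and 53.9% of all genes, and in R35K cells 0, 1, 1 and 7, against 0.347, 1.19, 5.40 and 53.3%.

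In R35A cells the step from 6 to 18 hpi held a fall of Blk (−0.64) and a rise of Fgr (0.66), and without replicate 2 of 18 hpi that of Blk was −0.58 and not called. In R35K cells Fgr rose between 3 and 6 hpi (0.69) and Blk fell between 6 and 18 hpi (−0.86). Members that passed the p but not the fold include Blk from 1 to 3 hpi in WT cells (−0.39). Fyn was the member not called between 18 and 120 hpi with R35A (−0.48) and R35K (−0.34). Of all 16988 genes, 467, 369 and 297 had an unadjusted p under 0.05 and a change of 1.5-fold from 1 to 3 hpi in WT, from 1 to 3 hpi in R35A and from 3 to 6 hpi in R35A cells, and 282 of 16434 from 1 to 3 hpi in R35K cells. DESeq2's Wald test also called 0 members in these 4 steps.

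**Figure D4:**
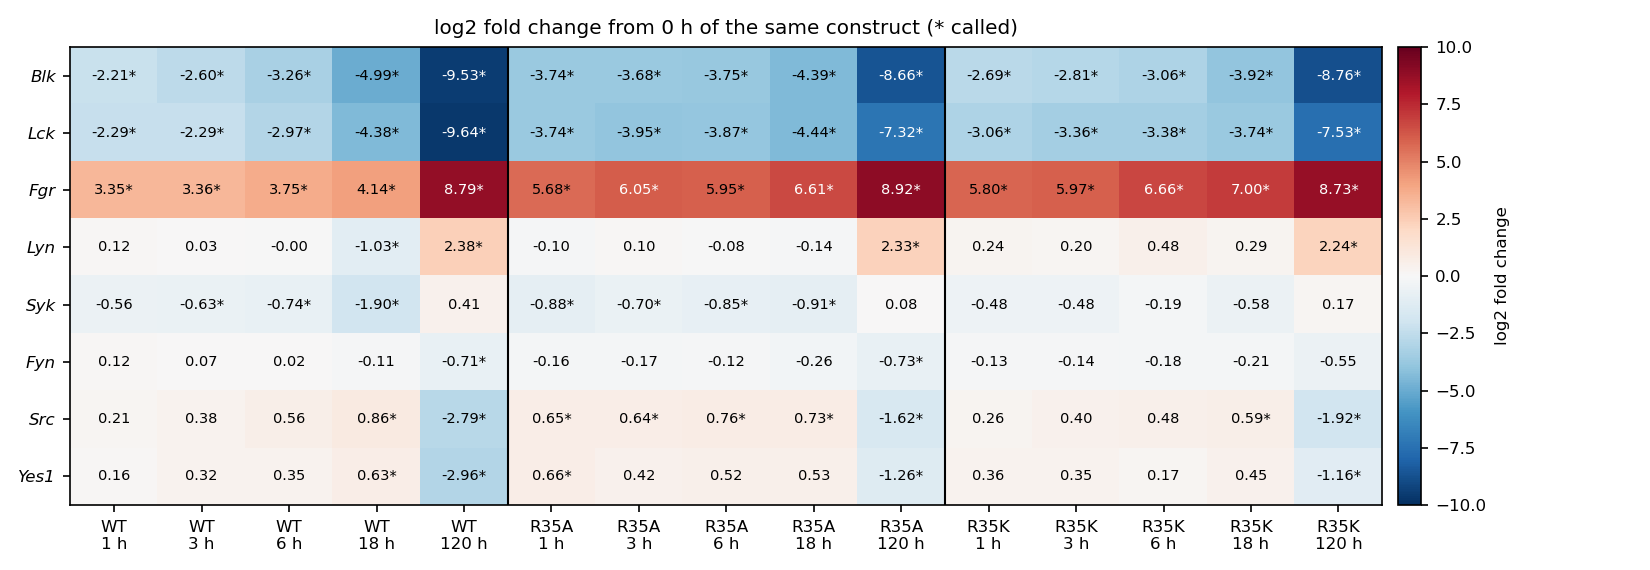
Log2 fold change of each member from 0 h of the same construct, by hours post induction, in edgeR's fit (colour: blue lower, red higher; asterisk: called). Blk and Lck are blue and Fgr red throughout. The values of Blk and Lck at 120 hpi come from 1 to 12 counts a pair of libraries and depend on edgeR's prior.

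R35A and WT cells were next compared at the same time, to ask whether the mutant moves the kinases sooner. Before induction 0 members and 0 of 16988 genes (0%) were called, and 261 genes had an unadjusted p under 0.05 with a 1.5-fold difference, while DESeq2's Wald test called 0 members. At 1 hpi Blk (−1.60 ± 0.0748, SE) and Lck (−1.57 ± 0.151) were lower and Fgr (2.10 ± 0.0990) higher in R35A cells. These 3 members were also called at 3 hpi, with −1.16, −1.78 and 2.46, and Lck (−1.02) and Fgr (1.97) at 6 hpi. At 18 hpi Fgr (2.24), Lyn (0.73) and Syk (0.89) were higher in R35A cells, and at 120 hpi Src (1.17) and Yes1 (1.62). The counts of 3, 3, 2, 3 and 2 members stand against 19.3, 17.0, 13.7, 10.1 and 18.8% of all genes.

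Of the 10 fibroblast markers, 7 were called higher and 1 lower in R35A than in WT cells at 120 hpi, and 1 was called higher and 0 lower at 1 hpi. Of all genes, 12.4% were called higher and 6.38% lower at 120 hpi, and 8.51% and 10.8% at 1 hpi. The part of feeder RNA in the differences between the constructs was not tested. At 1 hpi Blk was 3.04-fold lower and Fgr 4.29-fold higher in R35A cells. Lyn at 18 hpi was 1.66-fold and Syk 1.86-fold higher, in both R35A libraries above both WT libraries. The edgeR adjusted p for Fgr was 2.36e-24 at 1 hpi and 1.53e-29 at 18 hpi.

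R35A cells at 1 hpi were also set beside WT cells at 18 hpi, to set the earliest induced mutant cells against late WT cells. Here 4 members were called, against 10.5% of all genes, and all 4 were higher in R35A cells at 1 hpi: Blk (1.17 ± 0.110, SE), Fgr (1.32 ± 0.0873), Lyn (0.78 ± 0.0471) and Syk (0.92 ± 0.0358). R35A cells at 1 hpi thus held more of the B cell kinase Blk and more of the myeloid kinase Fgr than WT cells at 18 hpi. Lck differed by 0.52 ± 0.212 with an edgeR adjusted p of 0.066, and Src, Yes1 and Fyn by −0.22, −0.06 and −0.04.

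The difference between constructs was then tested in the change from 0 h itself, as an interaction, which takes the starting level into account. For R35A against WT 3, 3, 2, 4 and 2 members were called at 1, 3 and 6 hpi and then at 18 and 120 hpi, against 14.0, 13.0, 10.3, 8.36 and 14.5% of all genes. The values for Fgr were 2.33 ± 0.483 (SE), 2.69 ± 0.488, 2.20 ± 0.478 and 2.47 ± 0.481 from 1 to 18 hpi, and their large errors go with the 7 to 13 counts of Fgr at 0 h. Without replicate 1 of WT at 0 h, the Fgr value at 6 hpi was 1.71 and no longer called (edgeR adjusted p = 0.0754). Blk changed more with R35A at 1 hpi (−1.53 ± 0.0883) and 3 hpi (−1.08 ± 0.0921), as did Lck at 1, 3 and 6 hpi with −1.46, −1.67 and −0.91.

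At 18 hpi the sign for Blk was the opposite, 0.59 ± 0.129, with WT cells at the lower level. That value is near 1.5-fold and was not called with DESeq2's size factors (0.54) nor without replicate 1 of WT at 0 h (0.57), replicate 2 of WT at 18 hpi (0.55), replicate 2 of R35A at 0 h (0.57) or replicate 1 of R35A at 18 hpi (0.56). Lyn (0.88 ± 0.0644) and Syk (0.99 ± 0.0488) were higher with R35A at 18 hpi relative to 0 h. At 120 hpi Src (1.17 ± 0.127) and Yes1 (1.71 ± 0.228) fell less.

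R35K, with the basic residue lysine at this position, was compared with WT and R35A in the change from 0 h in a fit of all 36 libraries. Its libraries were deposited in tables of their own, so construct and table cannot be told apart in a direct comparison. The change from 0 h takes out differences between tables that are the same at all times, and not others. Both comparisons share R35K libraries, and that with WT shares WT libraries with the R35A comparison. Against WT 2, 2, 2, 5 and 2 members were called, with 11.9, 10.0, 12.2, 13.3 and 10.1% of 17277 genes. Fgr was the member called from 1 to 18 hpi, with 2.52 ± 0.479 (SE), 2.65 ± 0.480, 2.96 ± 0.485 and 2.90 ± 0.482. Lck fell more at 1 hpi (−0.70) and 3 hpi (−1.03), while Blk differed by −0.41 and −0.17 and was not called.

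At 18 hpi Blk (1.1 ± 0.117, SE), Lyn (1.35 ± 0.0641), Syk (1.36 ± 0.0489) and Lck (0.68 ± 0.238) were also higher in R35K than in WT cells relative to 0 h. For Lck this rests on replicate 1 of R35K at 18 hpi, which held 61 counts against 32 in replicate 2, and without it the value was 0.20 and not called. Without replicate 1 of WT at 18 hpi it was 0.56 and not called either. Syk at 6 hpi (0.60) was called near the threshold and lost with DESeq2's size factors (0.56) and without replicate 1 of R35K at 0 h (0.57), replicate 2 of WT at 0 h (0.57) or replicate 1 of WT at 6 hpi (0.54). At 120 hpi Src (0.84) and Yes1 (1.77) were higher, next to the fibroblast sums given above.

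Against R35A, 2, 2, 3, 1 and 0 members were called for R35K, with 5.83, 3.02, 5.89, 3.44 and 1.61% of all genes. Blk fell less with R35K at 1 hpi (1.07 ± 0.0879, SE), 3 hpi (0.88 ± 0.0880) and 6 hpi (0.74 ± 0.0890), and Lck at 1 hpi (0.71 ± 0.198), 3 hpi (0.61 ± 0.210) and 18 hpi (0.72 ± 0.241). At 6 hpi Lyn (0.60 ± 0.0605) and Syk (0.71 ± 0.0474) were higher. Fgr did not pass the test at any time, with 0.14 ± 0.451 at 1 hpi and 0.76 ± 0.448 at 6 hpi, with errors that leave a 1.5-fold difference undetected. The call of Lyn was lost with DESeq2's size factors (0.53) and without replicate 2 of R35A at 0 h (0.52). For Lck, the call at 1 hpi was lost without replicate 2 of R35A at 1 hpi (edgeR adjusted p = 0.0502), and that at 3 hpi without any 1 of the 8 libraries compared (0.55 to 0.66). At 18 hpi the Lck call was lost without replicate 1 of R35K at 18 hpi (0.245), of R35A at 18 hpi (0.46), of R35A at 0 h (0.71) or of R35K at 0 h (0.72). At 120 hpi, where edgeR called 0 members, 787 genes had an unadjusted p under 0.05 with a 1.5-fold difference, and DESeq2's Wald test also called 0 members.

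**Figure D5:**
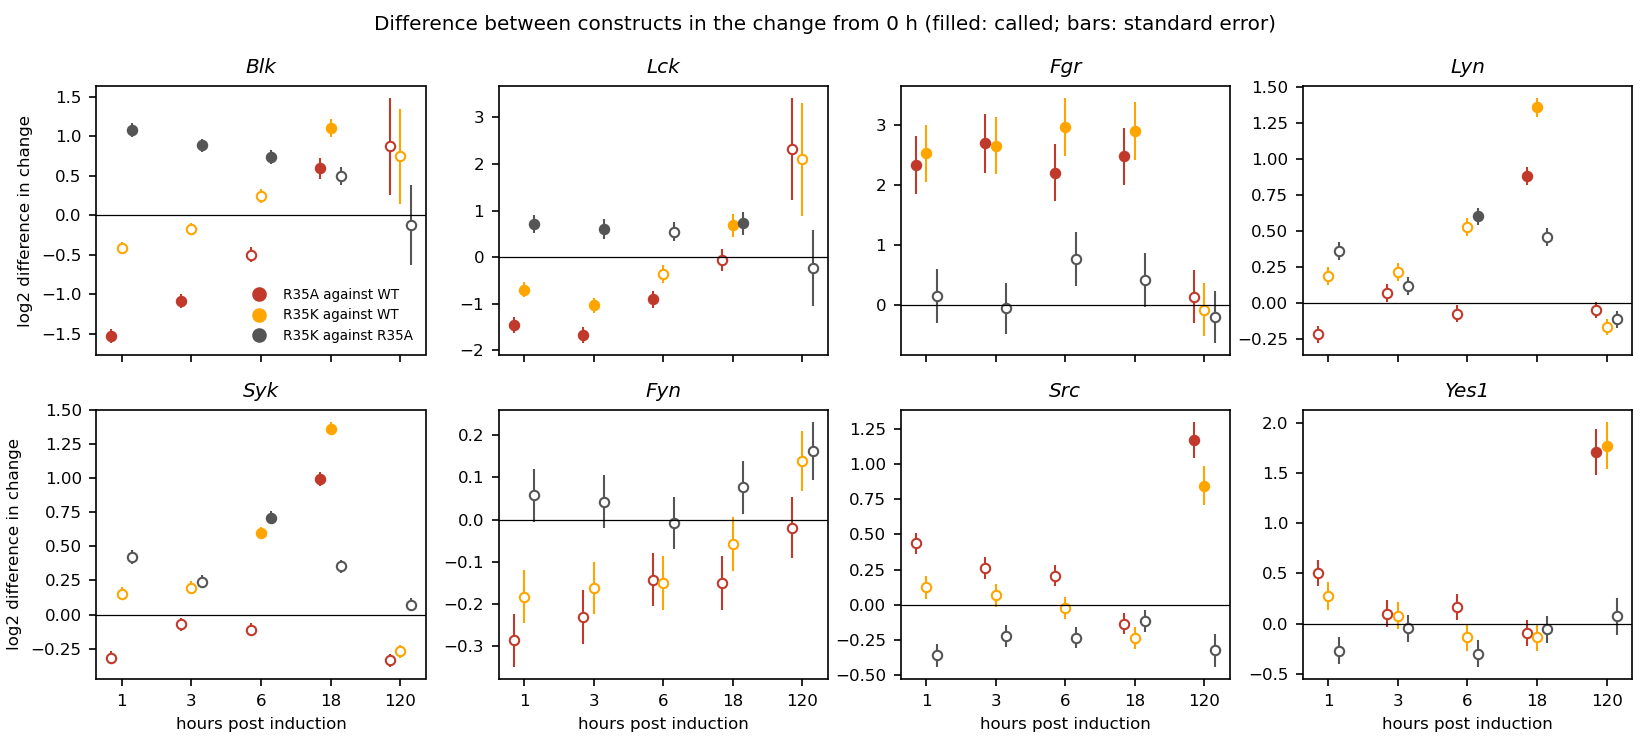
Difference between constructs in the log2 change from 0 h for each member, by hours post induction (red R35A against WT, orange R35K against WT, grey R35K against R35A; filled points: called; bars: standard error). Fgr lies above 0 from 1 to 18 hpi against WT for both mutants, Blk and Lck below 0 at 1 and 3 hpi for R35A, Lyn and Syk above 0 at 18 hpi against WT, and Src and Yes1 above 0 at 120 hpi against WT.

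Ratios within a library show the exchange without any scaling. The log2 ratio of Fgr to Blk counts was −7.71 and −8.48 at 0 h, −2.54 and −2.5 at 1 hpi, 0.76 and 1.26 at 18 hpi and 10.59 and 9.64 at 120 hpi in WT cells. At 1 hpi it was 1.28 and 1.07 in R35A and 0.53 and 0.23 in R35K cells, so that Fgr counts exceeded Blk counts at the first timepoint with either mutant and at 18 hpi with WT. Per kb of exon the levels of Fgr were 8.49 and 7.77 CPM against 4.982 and 5.297 CPM for Blk in R35A cells at 1 hpi. In R35K cells at 1 hpi they were 10.71 and 9.428 CPM against 10.62 and 11.5 CPM and overlapped, so the excess there holds for counts and not per length. In WT cells at 18 hpi they were 2.774 and 3.641 CPM against 2.341 and 2.167 CPM. The ratio of Lyn to Syk went from −2.36 and −2.34 at 0 h to −1.46 and −1.49 at 18 hpi and −0.43 and −0.35 at 120 hpi in WT cells. For the other members the genes most alike over the 18 group means were Ikzf3 (r = 0.9988), Tmprss3 and Myl4 for Blk, Hmgb1 (0.9952), Gimap5 and Lrrn3 for Lck, Samsn1 (0.9944), Pip4k2a and Cmpk1 for Lyn, Cyth1 (0.9756), B3gnt8 and Plcg2 for Syk, and Klhl11 (0.9803), Zkscan5 and Ubxn7 for Fyn.

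The partners of these kinases at the B cell receptor fell with Blk. Of 17 genes, 13 fell and 0 rose at 1 hpi in each of WT, R35A and R35K cells. These are 76.5% of the list, against 19.9, 37.3 and 32.9% of all genes called. The median log2 change of the 17 was −0.87, −2.46 and −1.68, beside −0.01, −0.01 and −0.04 over all genes. Cd22, an inhibitory receptor that Lyn phosphorylates, went from 96.4 to 11.1 CPM at 1 hpi in WT cells (−3.09 on the log2 scale) and from 85.6 to 6.16 CPM in R35A cells (−3.82). At 18 hpi 16, 14 and 14 had fallen in WT, R35A and R35K cells and 0 had risen. The called shares were 94.1, 82.4 and 82.4%, against 47.1, 42.6 and 39.0% of all genes. At 120 hpi 10 had fallen in each, while 6, 3 and 3 had risen. The called shares there were 94.1, 76.5 and 76.5%, against 63.3, 63.1 and 63.8% of all genes. With DESeq2's size factors the 3 that rose in R35A cells became 5.

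Those that fell include Igll1, a part of the pre-B cell receptor, from 598 to 0.611 CPM, and those that rose include Bank1, a B cell adaptor, from 4.09 to 14.6 CPM (1.71) and Dapp1, an adaptor downstream of PI3-kinase, from 18.8 to 50.2 CPM (1.29) in WT cells. In the list of myeloid ITAM receptors, adaptors and effectors, 14 of 19 rose and 0 fell in WT cells at 1 hpi, 16 rose and 1 fell in R35A cells, and 17 rose and 1 fell in R35K cells. Their median log2 change was 3.38, 4.03 and 4.74. Tyrobp, the ITAM adaptor of Trem2, went from 3.04 to 58.8 CPM in WT cells at 1 hpi and Fcgr3, an Fc receptor, from 2.17 to 41.2 CPM. With the mutants Fcgr3 went from 2.14 to 119.6 CPM in R35A and from 2.03 to 203 CPM in R35K cells.

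Trem2, a receptor of macrophages, went from 1.04 to 61.7 CPM in R35A and from 1.09 to 142 CPM in R35K cells at 1 hpi. The member of that list that fell there was Pik3cg, a PI3-kinase subunit, by 1.54 and 0.76 on the log2 scale, and in WT cells at 18 hpi Pik3cg (−2.29) and Vav1 (−1.75), an exchange factor of both lineages, fell. At 120 hpi all 19 had risen in each construct, Fcgr1 from 0.175 to 427 CPM in WT cells, and Fcgr4, which had 0 counts at 0 h in WT cells, was at 72.1 CPM. This list and that of the B cell receptor partners were chosen with earlier results known. Their directions are not independent evidence, and the background shares given above hold for these counts too.

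Regulators of SRC family kinases were called in both directions, and at 120 hpi in a share near that of all genes. Of 18 adaptors, phosphatases and ubiquitin ligases, 1 rose and 4 fell at 1 hpi in WT, 2 and 8 in R35A, and 3 and 5 in R35K cells, and at 120 hpi 8 rose and 4 fell in each. The called shares were 27.8, 55.6 and 44.4% at 1 hpi against 19.9, 37.3 and 32.9% of all genes, and 66.7% at 120 hpi against 63.3, 63.1 and 63.8%. With DESeq2's size factors 5 rose and 5 fell in R35K cells at 1 hpi. The median log2 change of this list was −0.07, −0.28 and −0.09 at 1 hpi. Lax1, an adaptor that restrains lymphocyte signalling, went from 111 to 19.4 CPM at 1 hpi in WT cells, and with R35A from 104 to 8.99 CPM. The paralogs Ubash3a and Ubash3b, phosphatases that act on Syk and its relatives, moved apart: at 120 hpi Ubash3a went from 21.1 to 0.269 CPM and Ubash3b from 3.78 to 129.8 CPM in WT cells. Dok2, an adaptor that dampens signalling of myeloid cells, went from 5.24 to 271 CPM.

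Among other cytoplasmic tyrosine kinases, 15 of 17 were tested in WT and R35A cells and 14 in R35K cells. At 120 hpi 6 rose and 3 fell in WT, 5 and 3 in R35A, and 5 and 3 in R35K cells, with a median of 0.40 on the log2 scale in WT cells beside −0.36 over all genes. These are 60, 53.3 and 57.1% of those tested, below the 63.3, 63.1 and 63.8% of all genes. In R35K cells at 1 hpi 1 rose and 1 fell, and 3 rose and 1 fell with DESeq2's size factors. Fes, a kinase of myeloid cells, went from 22.7 to 52.4 CPM at 1 hpi and to 505 CPM at 120 hpi in WT cells, and it was 121 CPM at 1 hpi in R35K cells. Btk, the Tec family kinase of the B cell receptor, which is in this list and in that of its partners, fell by 0.71, 2.05 and 1.11 on the log2 scale at 1 hpi in WT, R35A and R35K cells. Of 6 close relatives of the members 4 were tested, and they include Zap70, the T cell counterpart of Syk, which fell from 1.65 to 0 CPM in WT cells at 120 hpi, Matk, a kinase that restrains SRC family members, which went from 4.12 to 21.9 CPM, and Frk, which went from 6.40 to 1.41 CPM.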

How the data were processed

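RNA-seq was done on 36 libraries, 2 for each of 3 constructs at 6 timepoints. The authors made stranded mRNA libraries, checked the reads in FastQC and mapped them with STAR 2.5.0a on mm10, and deposited its raw counts per gene, in a table for WT and R35A and another for R35K. They also deposited log2 normalized counts made with DESeq2 1.14.1 size factors, used here only as an alternative scale. The annotation release and the strand setting are not given in the sources used here.

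Counts were tested with edgeR 4.0.16 (limma 3.58.1, R 4.3.3) by the quasi-likelihood F test, with TMM scaling, filterByExpr and Benjamini-Hochberg adjustment. One fit held WT and R35A (24 libraries, 16988 genes, totals of 13044456 to 20580185), another R35K (12 libraries, 16434 genes, 14668754 to 23131776), and a joint fit of 17277 genes served comparisons of R35K with other constructs. The biological coefficient of variation was 3.17%, 3.49% and 3.27%. A call required 1.5-fold and an adjusted p of at most 0.05, and standard errors follow from the F statistic. The script was tested on simulated counts. Levels are CPM, shares use the union of exons in GENCODE models of GRCm38, and sequences are from RefSeq on GRCm38.p6, where 6 of 8 members matched. Counting intervals are exact binomial at 95% and cover counting error only.

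Members and gene lists were chosen with earlier results of these data known. Of related genes, the 2 called genes with the largest rise and the 2 with the largest fall per list and comparison with 0 h, at 1 CPM or more in either group, could be named, and likeness is given for 3 genes per member. Marker lists cover B cells, macrophages, feeder fibroblasts, T cells, NK cells and granulocytes. Alternatives were DESeq2 1.42.0, its size factors, no filter and a filter of 10 counts, unadjusted p, 2-fold, a replicate block, each library left out, a joint fit and the compared groups alone. Some genes of the lists are not reported here by name. Added after seeing the data were ratios to Pdgfrb and to each fibroblast marker, and a feeder sum without Thbs1.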

Additional observations from a re-analysis of the deposited data

Results flagged for a closer look

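The results here stand out because the interaction term of edgeR's quasi-likelihood fit found that the change from 0 h differed between constructs by at least 1.5-fold with an adjusted p of at most 0.05. There are 35 of them, given as differences in log2 fold change, and their causes were not tested.

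Between R35A and WT cells, the change from 0 h differed for 14 pairs of member and time. At 1 hpi they were Blk (−1.53), Lck (−1.46) and Fgr (2.33). At 3 hpi they were Blk (−1.08), Lck (−1.67) and Fgr (2.69). At 6 hpi they were Lck (−0.91) and Fgr (2.20). At 18 hpi they were Blk (0.59), Lyn (0.88), Fgr (2.47) and Syk (0.99). At 120 hpi they were Src (1.17) and Yes1 (1.71).

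Between R35K and WT cells, 13 such differences passed the test. At 1 hpi they were Lck (−0.70) and Fgr (2.52). At 3 hpi they were Lck (−1.03) and Fgr (2.65). At 6 hpi they were Fgr (2.96) and Syk (0.60). At 18 hpi they were Blk (1.1), Lyn (1.35), Lck (0.68), Fgr (2.90) and Syk (1.36). At 120 hpi they were Src (0.84) and Yes1 (1.77).

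Between R35K and R35A cells, 8 did. At 1 hpi they were Blk (1.07) and Lck (0.71). At 3 hpi they were Blk (0.88) and Lck (0.61). At 6 hpi they were Blk (0.74), Lyn (0.60) and Syk (0.71). At 18 hpi it was Lck (0.72). Of all 17277 genes, 5.83, 3.02, 5.89 and 3.44% were called at these times, and 1.61% at 120 hpi.

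The values of Fgr rest on 7 to 13 counts per library at 0 h, and those of Src and Yes1 at 120 hpi lie beside fibroblast markers of which 7 were higher in either mutant than in WT cells in the change from 0 h. Some calls were lost with another setting at 1.5-fold or without 1 library, as given above. These were Blk at 18 hpi and Fgr at 6 hpi for R35A against WT, and Syk at 6 hpi and Lck at 18 hpi for R35K against WT. For R35K against R35A they were Lyn at 6 hpi and Lck at 1, 3 and 18 hpi.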

How the results depend on the processing

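Over all alternatives there were 5414 recomputed values, of which 5289 kept their side of the thresholds, 104 lost the call, 21 gained one and 0 called values reversed. With 2-fold in place of 1.5-fold, the members called against 0 h in R35A cells were 3 at 1, 3, 6 and 18 hpi, and 0 in the step from 6 to 18 hpi. With that threshold 2 were called for R35A at 1 hpi against WT at 18 hpi, 1 for R35A against WT at 18 hpi, and 1 each in the change at 6 and 18 hpi. In R35K cells 0 were called in the steps from 3 to 6 and from 6 to 18 hpi, and 0 in WT cells from 3 to 6 hpi. For R35K against WT the count was 1 at 1, 6 and 120 hpi, and for R35K against R35A it was 1 at 1 hpi and 0 at 3, 6 and 18 hpi. Calls over all 16988 genes fell at 2-fold as well. In WT cells they went from 3388 to 1708 at 1 hpi against 0 h, and from 176 to 64 between 3 and 6 hpi. The counts of members in this section are therefore no result about the members alone. DESeq2's Wald test gave 0 members at 18 hpi and 1 at 3 hpi for R35K against R35A, and 1 at 6 hpi for R35K against WT, and so did edgeR without a filter on low counts. DESeq2's size factors in edgeR gave 1 at 3 hpi and 1 at 6 hpi in these comparisons. The causes were not tested. Leaving out 1 library gave 1 to 3 members for R35A against WT in the change at 6 hpi, 1 to 2 for R35K from 6 to 18 hpi, 1 to 2 at 1 hpi, 1 at 3 hpi and 0 to 1 at 18 hpi for R35K against R35A, 1 to 2 for R35K against WT at 6 hpi, and 1 to 3 for WT from 3 to 6 hpi. Calls of related genes, counted as pairs of gene and comparison over the lists, numbered 721 over the 15 comparisons with 0 h. They numbered 599 at 2-fold and 733 with size factors, and no share of all genes stands beside these sums.

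The size factors moved the median of all genes by 0.115 (log2) at 18 hpi and 0.158 at 120 hpi in WT cells, 0.129 at 120 hpi in R35A and 0.136 in R35K cells, and −0.106 for R35K against WT at 18 hpi. There the split of genes higher and lower went from 1539 and 764 to 1237 and 1108, for R35K against R35A from 717 and 290 to 555 and 394 at 1 hpi, and from 810 and 208 to 614 and 312 at 6 hpi. With coding length 65 of 72 shares moved by more than the spread between replicates. On the deposited log2 normalized scale, 49 changes in mean level from 0 h moved by more than that spread and 71 did not, and leaving out a library moved 0 of 144 shares. Blk and Lck could not be tested for R35A against WT at 120 hpi in a fit of these groups alone.

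The replicate block was fitted for each comparison and changed 0 calls of members, so that 6 members were called for R35A at 1 hpi against 0 h with it. Replicate numbers showed no common pairing of the libraries: over 153 pairs of groups the median correlation of replicate differences was −0.004, and 3 pairs were above 0.1. The correlations ran from −0.367 to 0.217, and pairing under swapped replicate numbers was not tested. Depth limits Blk and Lck at 120 hpi, with 1 to 12 counts per pair of libraries, and Fgr at 0 h.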

Other observations

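Markers of further cell types had the following summed levels. The 7 granulocyte genes were at 46.53 to 60 CPM at 0 h, at 1.971 to 4.219 CPM at 1 hpi and at 1.787 to 10.77 CPM at 120 hpi. The 7 T cell genes were at 13.69 to 17.24 CPM at 0 h, of which Lat made up 10.08 to 10.19 CPM, and at 4.534 to 7.161 CPM at 1 hpi, and the 4 NK cell genes were at or below 2.88 CPM at 0 h, with Ncr1 at 0 in each construct.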
